A study of Mus musculus with 16 samples.

Results

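Described here are 8 genes used as markers of regulatory T cells, in the bulk RNA-seq of mouse MC38 tumors. They are Foxp3, Ikzf2, Ikzf4, Il2ra, Tnfrsf18, Tnfrsf4, Ccr8 and Lrrc32, and their levels are those of whole tumors, not of regulatory T cells alone. The genes were chosen by name as regulatory T cell genes and matched by symbol to the count table, in which all 8 were found among 53465 genes, and all 8 passed the filter for low counts that left 18251 genes for testing. Their levels were compared between the 3 groups of tumors and were also set against Cd4 and Cd8a, the coreceptor genes of helper and cytotoxic T cells, in each tumor. The study sequenced 16 tumors, 1 per mouse, to compare tumors that did and did not respond early to aPD-1, an antibody against the checkpoint receptor PD-1. MC38 is a mouse colon carcinoma line that grows in immune-competent mice of its own strain. In every group, MC38 cells were placed under the skin of the right flank of female C57BL/6 mice aged 6 to 8 weeks, tumors measured 150 to 250 mm3 on day 16, 200 µg of antibody was given on days 16 and 20, and tumors were taken on day 21. The IgG control group received control antibody (n = 8). The aPD-1 non-responder (n = 6) and aPD-1 responder (n = 2) groups received the same aPD-1 treatment and were told apart by CD8 T cell staining of the tumor, so a difference in T cell genes between responders and other tumors bears on the trait that defined the groups. All tumors came from 1 cell line, and each library holds RNA of whole sections, tumor and host cells together. Of markers of an epithelial tumor, Cdx2 was at 0 in all aPD-1 tumors. The 7 marker genes summed to 4.95 to 10.2 CPM (counts-per-million units) in controls, 4.61 to 12.2 CPM in non-responders and 50.5 to 116 CPM in responders. Cdh1 was the highest of them in mean over all tumors. From non-responders to responders Cdh1 changed by only 0.78 on the log2 scale. Krt8 (5.99), Krt18 (5.61), Krt19 (5.61) and Epcam (4.30) changed by more.

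Regulatory T cells are a lineage of CD4 T cells that holds back other T cells and is enriched in many tumors. Foxp3 is the transcription factor that defines the lineage. Ikzf2 (Helios) and Ikzf4 (Eos) are zinc finger factors that work beside it, and Il2ra (CD25) is the alpha chain that gives these cells their high-affinity receptor for interleukin 2. Tnfrsf18 (GITR) and Tnfrsf4 (OX40) are costimulatory receptors of the tumor necrosis factor family, Ccr8 is a chemokine receptor typical of regulatory T cells in tumors, and Lrrc32 (GARP) holds latent TGF-beta on the cell surface. Several of these genes are also used by other cells, such as activated T cells for Il2ra, Tnfrsf18 and Tnfrsf4, and platelets and endothelial cells for Lrrc32.

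The genes lie on 8 different places of the genome (GRCm38, GENCODE release 21), spread over 7 chromosomes. Foxp3 (ENSMUSG00000039521) spans chrX:7573644-7595245 on the plus strand. Tnfrsf4 (chr4:156013843-156016612) and Tnfrsf18 (chr4:156026164-156028895) are neighbours on the same strand, with 9551 bases between them. The other members are Ikzf2 (chr1:69531214-69687245), Ikzf4 (chr10:128630843-128645991), Il2ra (chr2:11642807-11693193), Ccr8 (chr9:120092114-120094906) and Lrrc32 (chr7:98489283-98502181). Foxp3 overlaps Flicr on its own strand and 3 further genes on the opposite strand, and Ikzf2, Ikzf4, Il2ra and Tnfrsf18 each overlap an unnamed or antisense gene model. The library preparation keeps strand, but the strand setting of the counting step is not given in the sources used here, so reads in the overlaps may have been assigned to either gene.

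Promoter sequences from RefSeq (GRCm38.p6) were found for 5 of the 8 members, in 6 windows, since Foxp3 has 2 annotated start sites. They were searched on both strands, over 300 bases each, for STAT (TTCNNNGAA), forkhead (TGTTTAC), RUNX (TGTGGT) and NFAT (GGAAAA) motifs, the letters bound by factors known to act on regulatory T cell genes. The STAT and NFAT letters each occurred in 2 of the 6 windows, against 8.30% and 23.4% of all 32851 promoter windows. The forkhead and RUNX letters occurred in 0 of the 6 windows, against 3.65% and 16.8% of all. The windows of Foxp3, the defining gene, and of the neighbours Tnfrsf18 and Tnfrsf4 are shown as the 250 bases before the start site, all on the plus strand, with matches in capitals.
Foxp3, first start site, chrX:7579426-7579675: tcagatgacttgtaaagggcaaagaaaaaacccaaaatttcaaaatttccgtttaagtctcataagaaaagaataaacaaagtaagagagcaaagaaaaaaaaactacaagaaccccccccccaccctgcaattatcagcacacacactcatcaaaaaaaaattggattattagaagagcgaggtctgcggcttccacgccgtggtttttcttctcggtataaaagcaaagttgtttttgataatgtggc
Foxp3, second start site, chrX:7580233-7580482: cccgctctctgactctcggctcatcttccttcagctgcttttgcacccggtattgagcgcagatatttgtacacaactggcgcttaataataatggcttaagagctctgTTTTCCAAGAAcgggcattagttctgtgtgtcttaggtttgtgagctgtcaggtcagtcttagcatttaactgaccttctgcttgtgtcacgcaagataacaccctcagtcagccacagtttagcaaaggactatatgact
Tnfrsf18, chr4:156026072-156026321: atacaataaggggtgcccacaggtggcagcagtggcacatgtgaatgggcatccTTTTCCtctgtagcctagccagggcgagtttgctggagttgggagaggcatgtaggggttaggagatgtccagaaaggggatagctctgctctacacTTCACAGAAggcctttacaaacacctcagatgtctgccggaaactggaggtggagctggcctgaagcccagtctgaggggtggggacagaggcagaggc
Tnfrsf4, chr4:156013445-156013694: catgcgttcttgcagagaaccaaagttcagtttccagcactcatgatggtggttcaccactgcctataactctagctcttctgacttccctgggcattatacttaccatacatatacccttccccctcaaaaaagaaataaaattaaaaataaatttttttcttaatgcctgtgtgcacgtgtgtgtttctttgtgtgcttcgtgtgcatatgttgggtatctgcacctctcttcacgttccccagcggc
In the second Foxp3 window, the NFAT letters on the minus strand begin at -141 and the STAT letters at -139, so both share bases in 1 capital run. Tnfrsf18 holds the NFAT letters on the minus strand at -196 and the STAT letters at -99, apart from each other. The Tnfrsf4, Il2ra and Ccr8 windows and the first Foxp3 window held none of the 4 motifs. A match of letters describes the sequence and shows no binding.

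Total counts ranged from 26603449 to 39948866 per tumor, with a median of 34105782. Mitochondrial genes took 7.60% of the counts in IgG control replicate 1, 6.00% in non-responder replicate 9 and 5.73% in non-responder replicate 14, against 2.52% to 3.25% in the other 13 tumors. The single gene ENSMUSG00000106106 took 20.4% of the counts in IgG control replicate 3, against 0.151% to 0.489% in the other tumors. Levels are given in CPM after TMM scaling, with a factor of 0.784 for that replicate and 0.981 to 1.07 for the others. Folds are on the log2 scale and come from the quasi-likelihood fit of edgeR, where p-values were adjusted by Benjamini-Hochberg over all 18251 genes. Their standard errors (SE) are not given by edgeR. They were derived as the size of the log2 fold change divided by the square root of its F statistic. Calling a gene required both an adjusted p under 0.05 and a change of over 1 log2 unit. In bulk RNA, fewer cells of a type and less RNA per cell cannot be told apart.

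Between responders and non-responders, 6 of the 8 genes were called higher in responders, against 12.5% of all genes. The 6 were Foxp3, Ikzf2, Ikzf4, Il2ra, Tnfrsf18 and Tnfrsf4. The median log2 fold change of the 8 was 1.35, and that of all genes was 0.02. The 2 responders had the highest values for each of the 8, with no non-responder reaching them, which held for 21.5% of all genes. Cd4 itself rose by much more, with a log2 fold change of 4.35 ± 0.36 (SE; adjusted p = 3.09e-07), as did Cd8a (3.13 ± 0.46, adjusted p = 1.09e-04) and Cd3e, a chain of the T cell receptor complex (3.54 ± 0.48, adjusted p = 4.56e-05).

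Foxp3 had 0.360, 0.815 and 1.05 CPM as the lowest, median and highest of the IgG control tumors, 0.440, 1.33 and 1.65 CPM in non-responders, and 5.59 and 3.97 CPM in responder replicates 15 and 16. These are small numbers of reads, 12 to 36 counts in IgG control tumors, 13 to 56 in non-responders, and 189 and 141 in the responders. The groups of responders and non-responders did not overlap. The log2 fold change was 1.93 ± 0.38 (SE, adjusted p = 0.00153), or 3.80-fold.

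Ikzf2 was the most abundant of the 8 by count, and its non-responders and controls overlapped throughout, with 7.20, 8.16 and 12.4 CPM (lowest, median, highest) against 6.02, 8.77 and 12.2 CPM. The responders had 24.6 and 20.1 CPM, above every other tumor. Its log2 fold change over non-responders was 1.37 ± 0.21 (adjusted p = 1.9e-04), the smallest standard error among the 8. Ikzf4 was near the lower end, at 0.344, 0.447 and 0.831 CPM in IgG control tumors, 0.373, 0.724 and 0.951 CPM in non-responders, and 3.22 and 1.77 CPM in responders. Responder replicate 15 was the higher one for all 3 of these transcription factors. The log2 fold change of Ikzf4 was 1.82 ± 0.38 (adjusted p = 0.00227).

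Il2ra ran from 3.60 to 7.75 CPM in IgG control tumors (median 4.35) and from 4.12 to 7.57 CPM in non-responders (median 5.59). Both responders were higher, at 13.1 and 16.1 CPM, and here replicate 16 was the higher one. The log2 fold change over non-responders was 1.34 ± 0.26 (adjusted p = 0.0013).

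The TNF receptor genes rose to a similar extent. Tnfrsf18 had 2.87, 3.49 and 4.38 CPM in IgG control tumors, 2.44, 4.38 and 6.68 CPM in non-responders, and 10.7 and 9.70 CPM in responders. Tnfrsf4, its neighbour, had 0.929, 1.90 and 2.83 CPM, then 1.25, 2.32 and 3.31 CPM, and 6.59 and 5.60 CPM in the same order. For both genes every responder lay above every other tumor. The log2 fold changes were 1.21 ± 0.26 (adjusted p = 0.00293) and 1.34 ± 0.37 (adjusted p = 0.0156).

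Ccr8 and Lrrc32 were not called between responders and non-responders. Ccr8 was the rarest of the 8, with 1 to 25 counts in IgG control tumors, 3 to 23 in non-responders, and 30 and 42 in responders. In CPM these were 0.038, 0.285 and 0.717 in controls, 0.0916, 0.459 and 0.662 in non-responders, and 0.887 and 1.18 in responders, with no overlap. The log2 fold change of Ccr8 was 1.41 ± 0.67 (adjusted p = 0.166), so a difference of this size was not resolved in these tumors. Lrrc32 varied widely within groups, with 2.07, 4.54 and 8.59 CPM in controls, 3.37, 5.85 and 9.33 CPM in non-responders, and 16.1 and 10.2 CPM in responders. The lower responder was only slightly above the highest non-responder. Its log2 fold change was 1.19 ± 0.46 (adjusted p = 0.0851).

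**Figure D1:**
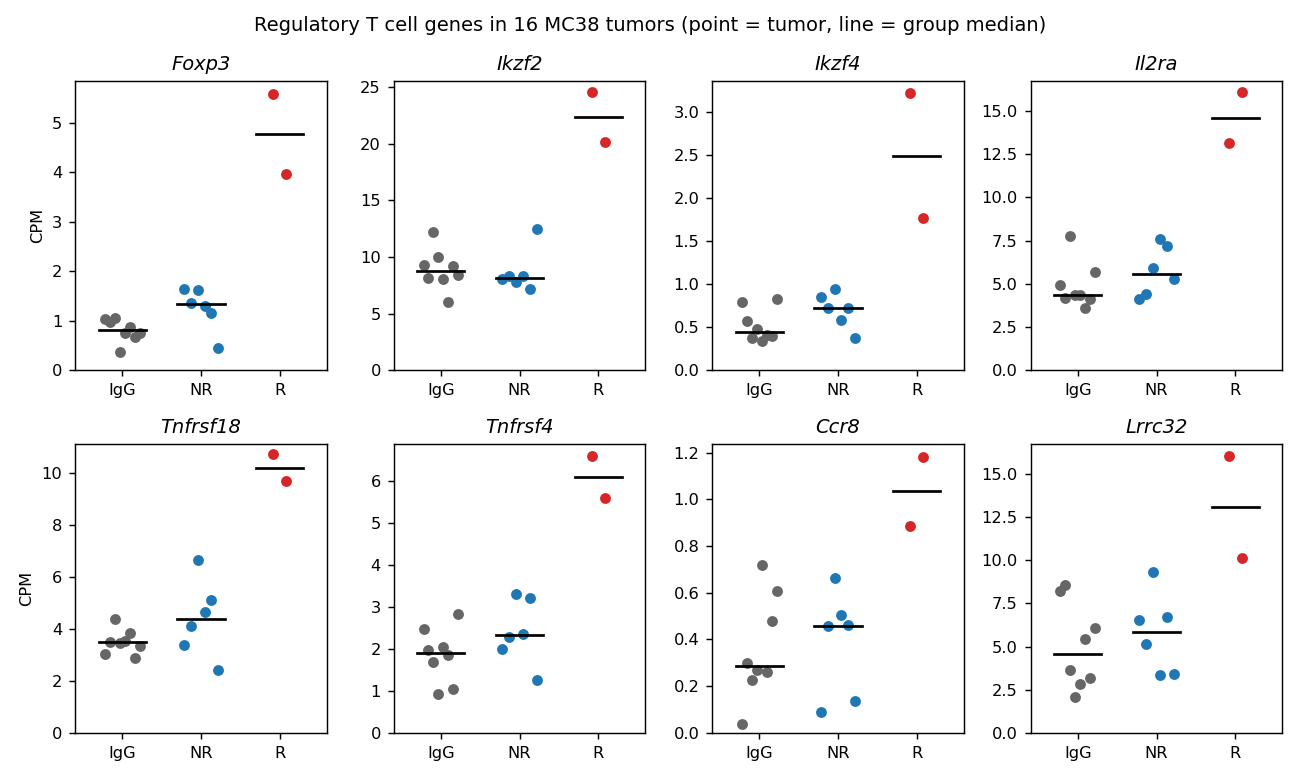
CPM (linear axis from 0, 1 panel per gene) of the 8 regulatory T cell genes in IgG control (IgG, n = 8), aPD-1 non-responder (NR, n = 6) and aPD-1 responder (R, n = 2) tumors, with 1 point per tumor and a line at the group median. In all 8 panels both responders sit above every other tumor, closest for Lrrc32, where the lower responder had 10.2 CPM and the highest non-responder 9.33 CPM.

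The calls between responders and non-responders leaned on responder replicate 15. Without it, 2 of the 8 genes, Ikzf2 and Il2ra, stayed called, while the share of all genes called higher fell to 4.67%. The log2 fold changes of the 4 lost genes were still above 1, at 1.59 for Foxp3, 1.26 for Ikzf4, 1.07 for Tnfrsf18 and 1.15 for Tnfrsf4. Leaving out responder replicate 16 instead, the call of Tnfrsf4 was lost, at a log2 fold change of 1.40. Without the 3 tumors of highest mitochondrial share, 5 genes were called, where 12.8% of all genes were, since Tnfrsf18 had a log2 fold change of 0.94.

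Against the IgG control group, 7 of the 8 genes were called higher in responders, where 14.3% of all genes were. Foxp3 had the largest log2 fold change, 2.56 ± 0.35 (adjusted p = 4.25e-05), or 5.90-fold. The other transcription factors stood at 2.24 ± 0.36 for Ikzf4 (adjusted p = 1.65e-04) and 1.33 ± 0.20 for Ikzf2 (adjusted p = 1.18e-04). Il2ra changed by 1.58 ± 0.24 (adjusted p = 1.3e-04), Tnfrsf18 by 1.54 ± 0.24 (adjusted p = 1.65e-04) and Tnfrsf4 by 1.72 ± 0.35 (adjusted p = 0.00139). Lrrc32 was called here, at 1.39 ± 0.44 (adjusted p = 0.0289). Ccr8 was not, at 1.49 ± 0.64 (adjusted p = 0.11). The median of the 8 was 1.56, against -0.02 for all genes, and in all 8 both responders lay above all 8 controls, as did 19.3% of all genes. This comparison uses the same 2 responders as the previous one, so its counts are not a second observation of them. Without responder replicate 15, 5 of the 8 were called, where 6.27% of all genes were, with Lrrc32 (0.95) and Tnfrsf4 (1.52) lost, and Lrrc32 (1.63) was also lost without replicate 16. Without the 3 tumors of highest mitochondrial share all 8 were called, Ccr8 among them (1.27, edgeR adjusted p = 0.021), where 15.7% of all genes were.

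Between non-responders and IgG control tumors, edgeR called 0 of the 8 genes and 0% of all genes, and DESeq2 called 0 of the 8. At an unadjusted p below 0.05, each tool marked 1 of the 8, where edgeR marked 3.8% and DESeq2 4.32% of all genes. By edgeR this gene was Foxp3. Its log2 fold change was 0.63 ± 0.28 (edgeR, adjusted p = 0.987). In level, the highest control was exceeded by 5 of the 6 non-responders, all but replicate 14 with 0.440 CPM. An exact permutation test of log2 CPM gave p = 0.0922, two-sided. The other log2 fold changes ran from -0.04 for Ikzf2 and 0.09 for Ccr8 to 0.42 for Ikzf4, and the median of the 8 was 0.28, against -0.01 for all genes. The direction of Ikzf2 and Ccr8 changed when single tumors were left out. Of single genes, 0.0164% had all non-responders above all controls, and none of the 8 was among them.

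**Figure D2:**
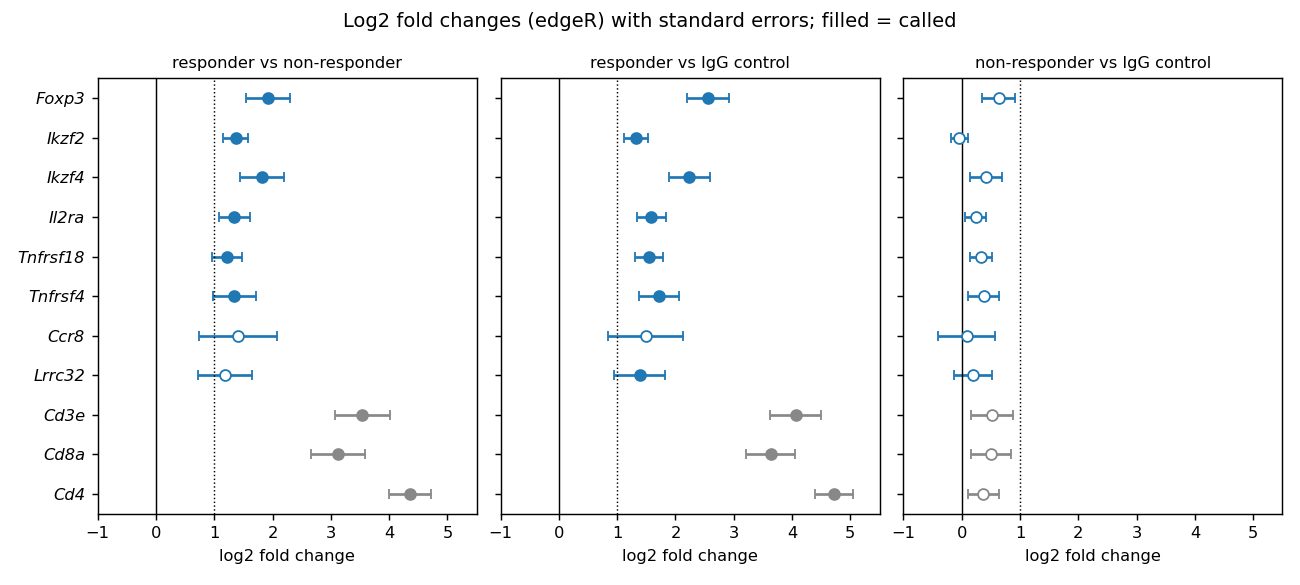
Log2 fold changes from edgeR (points) with standard errors (bars) of the 8 regulatory T cell genes (blue) and of Cd3e, Cd8a and Cd4 (grey) in the 3 comparisons, with filled points for called genes and a dotted line at a log2 fold change of 1. Against non-responders the 8 genes lie between 1.19 and 1.93 and the 3 general T cell genes between 3.13 and 4.35, while every point of the non-responder comparison is open.

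Compared between genes on a scale of CPM per kilobase of exon, the level order in responders was Tnfrsf18 (6.70 ± 0.48, SD, n = 2), Tnfrsf4 (4.46 ± 0.52), Lrrc32 (2.79 ± 0.89), Il2ra (2.56 ± 0.37), Ikzf2 (1.92 ± 0.27), Foxp3 (1.04 ± 0.25), Ccr8 (0.880 ± 0.177) and Ikzf4 (0.416 ± 0.171). Neighbours whose means lay closer than the sum of their SDs were Lrrc32 and Il2ra, Il2ra and Ikzf2, and Foxp3 and Ccr8. The sum describes spread between tumors only. All genes were measured in the same tumors, and their order within each tumor was not tested. In non-responders the order was Tnfrsf18 (2.89 ± 0.96, SD, n = 6), Tnfrsf4 (1.76 ± 0.57), Lrrc32 (1.23 ± 0.49), Il2ra (1.01 ± 0.25), Ikzf2 (0.747 ± 0.163), Ccr8 (0.328 ± 0.191), Foxp3 (0.274 ± 0.096) and Ikzf4 (0.117 ± 0.034). By the same measure the neighbours from Tnfrsf18 down to Ikzf2 lay within their summed SDs, as did Ccr8 and Foxp3. Only the steps from Ikzf2 to Ccr8 and from Foxp3 to Ikzf4 were larger than these sums. Cd4 stood at 0.486 ± 0.189 in non-responders on the same scale, under 5 of the 8 genes, and at 9.96 ± 1.65 in responders, above all 8.

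Set against Cd4 within each tumor, the regulatory T cell genes were lower in responders. Foxp3 had 33.8, 47.1 and 150.0 counts per 100 Cd4 counts as the lowest, median and highest of the IgG control tumors, 50, 58.0 and 115 in non-responders, and 12.5 and 11.2 in responder replicates 15 and 16. The responders lay below all other tumors and next to each other. The difference in log2 CPM between Foxp3 and Cd4 was lower by 2.44 ± 0.58 in responders than in non-responders (log2 difference -2.44, limma, adjusted p = 2.35e-04), a ratio of 0.184. The same held for all 8 genes, which were called lower relative to Cd4 with a median of -3.02, from -3.17 for Lrrc32 to -2.44 for Foxp3.

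Nearly every gene falls when divided by a gene that rose as much as Cd4: 95.3% of all genes were called lower relative to Cd4, with a median of -4.36. The count of 8 of 8 is near that background and is not a result about the members. Against IgG control tumors all 8 were lower relative to Cd4, where 96% of all genes were, with a median of -3.15 for the members and -4.73 for all genes. Foxp3 again had the smallest drop, -2.23 ± 0.56 (adjusted p = 4.32e-04), and Ikzf2 the largest, -3.41 ± 0.54 (adjusted p = 5.86e-07). Il2ra shows the sizes involved, with 174 to 600 counts per 100 Cd4 counts in non-responders and 29.3 and 45.5 in responders.

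Relative to Cd8a the log2 differences of responders were smaller, since Cd8a rose less than Cd4. The shift is the same for every gene within a comparison and is not a result about the members. Foxp3 had 6.52, 22.3 and 34.8 counts per 100 Cd8a counts in IgG control tumors, 10.8, 15.6 and 31.5 in non-responders, and 9.36 and 6.70 in responders. Both responders were below every non-responder, while the lowest control, replicate 8, was below both responders. The log2 difference was -1.24 ± 0.72 (limma, adjusted p = 0.0936) between responders and non-responders and -1.31 ± 0.70 (adjusted p = 0.0635) between responders and controls, and neither was called. Without the 3 tumors of highest mitochondrial share the second was called (-1.37). With the mean of Cd3e, Cd3d and Cd3g in place of Cd8a, both were called, at -1.42 and -1.54. The share of all genes called lower was not counted in these fits, so these calls are not results about Foxp3.

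Of the 8 genes, 6 were called lower relative to Cd8a against non-responders, where 89.1% of all genes were, and Foxp3 and Ikzf4 (-1.46 ± 0.75, adjusted p = 0.0576) were not. Tnfrsf18, for example, had 54.0 to 94.4 counts per 100 Cd8a counts in non-responders and 18 and 16.4 in responders, a log2 difference of -1.93 ± 0.65 (adjusted p = 0.00383). Without responder replicate 16 this count was 2, Il2ra and Tnfrsf18, where 81.4% of all genes were called. The log2 differences of the lost genes were then -1.68 for Ikzf2, -1.70 for Tnfrsf4, -1.90 for Ccr8 and -1.64 for Lrrc32. The call of Ccr8 (-1.70 with all tumors) was also lost with a prior count of 0.5 (-1.55), with the edgeR offset fit (-1.67), and without non-responder replicate 10 (-1.50) or responder replicate 15 (-1.50). Against IgG control tumors, 7 of the 8 were called lower, all but Foxp3, where 92% of all genes were. Neither count exceeds the share of all genes, so they are not results about the members. The median relative to Cd8a was -1.82 for the members and -3.16 for all genes against non-responders. Against IgG control tumors it was -2.23 and -3.81.

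**Figure D3:**
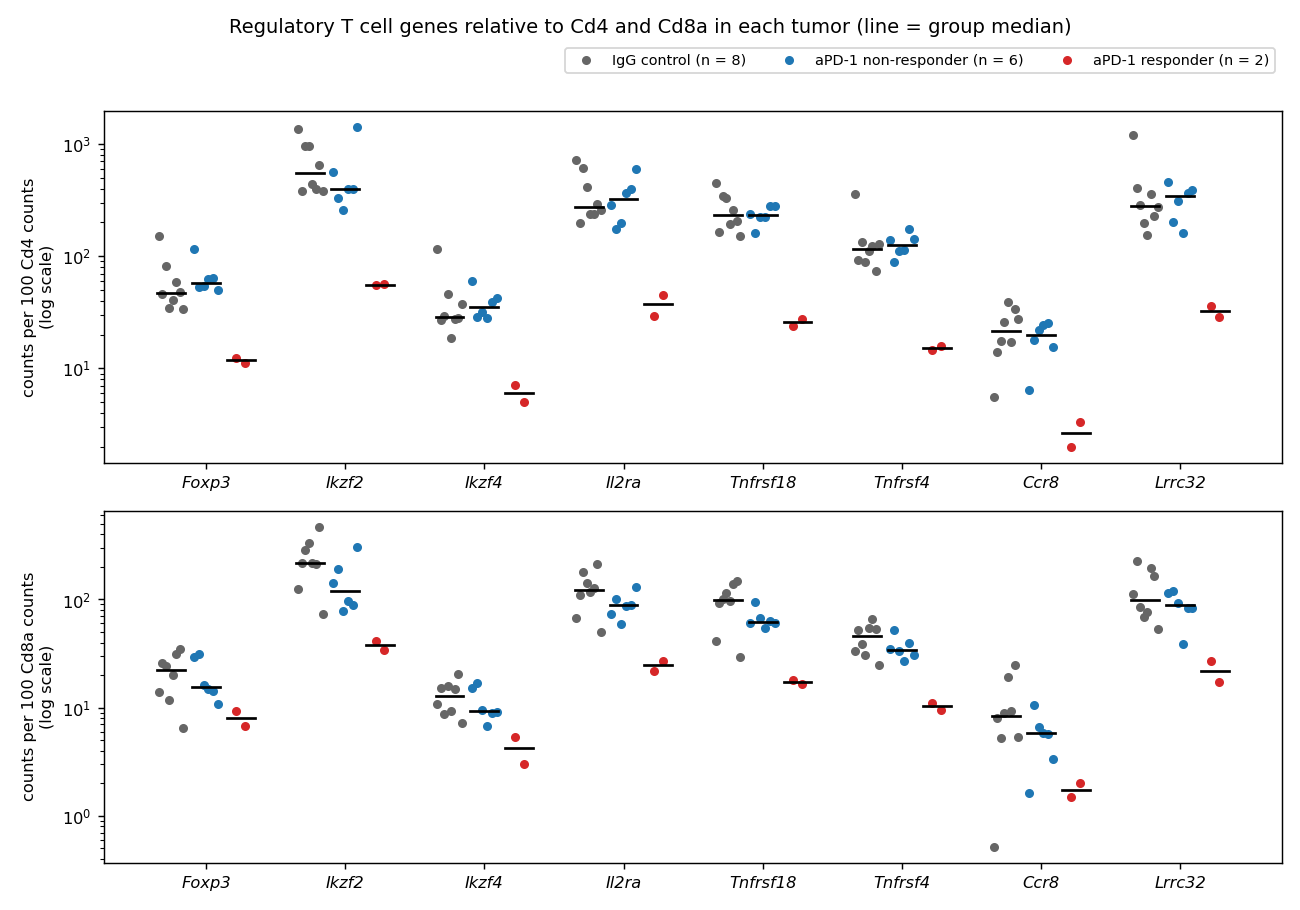
Counts of each of the 8 genes per 100 Cd4 counts (top) and per 100 Cd8a counts (bottom) on log axes, with 1 point per tumor, colours for the 3 groups and a line at each group median. Relative to Cd4 both responders lie below all other tumors for all 8 genes, and relative to Cd8a the responders come within the range of the controls for Foxp3 and Ccr8 only.

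Between non-responders and IgG control tumors, 0 of the 8 genes differed relative to Cd4 or to Cd8a by limma, where 0% of all genes did, and 0 of the 8 had an unadjusted p below 0.05 in either. For Foxp3 the log2 difference was 0.21 ± 0.38 relative to Cd4 (adjusted p = 0.771) and -0.08 ± 0.48 relative to Cd8a (adjusted p = 0.888). Cd4 counts are low here, 18 to 80 in controls and 26 to 104 in non-responders, which limits the precision of each ratio.

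Foxp3 was set against Cd4 and Cd8a across the tumors, as log2 CPM, in 6 relations. The 2 responders stand apart on all 3 genes, so no r over 16 tumors is given. Over the 14 other tumors, which pool IgG control and non-responder tumors, Foxp3 and Cd4 had Pearson r = 0.53 (permutation p = 0.0596, adjusted p = 0.199) and Spearman rho = 0.46 (permutation p = 0.0976, adjusted p = 0.293). Foxp3 and Cd8a had r = 0.50 (permutation p = 0.0662, adjusted p = 0.199) and rho = 0.61 (permutation p = 0.0222, adjusted p = 0.133). None of these passed the correction. Without the 2 tumors farthest from the median on the x axis, r was 0.59 for Cd4 and 0.57 for Cd8a.

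Within the 8 IgG control tumors, Foxp3 and Cd4 had r = 0.07 (exact permutation p = 0.782, adjusted p = 0.782) and rho = -0.10 (exact permutation p = 0.84, adjusted p = 0.84), and r = 0.62 without the 2 farthest tumors. For Cd8a these were r = 0.30 (exact permutation p = 0.459, adjusted p = 0.551), rho = 0.57 (exact permutation p = 0.151, adjusted p = 0.302) and r = 0.39. Within the 6 non-responders, Foxp3 and Cd4 had r = 0.79 (exact permutation p = 0.156, adjusted p = 0.311) and rho = 0.43 (exact permutation p = 0.419, adjusted p = 0.597). Foxp3 and Cd8a had r = 0.55 (exact permutation p = 0.297, adjusted p = 0.446) and rho = 0.37 (exact permutation p = 0.497, adjusted p = 0.597). Without the 2 farthest tumors, replicate 14 among them, 4 were left, and r was -0.47 for Cd4 and -0.28 for Cd8a. Leaving out the farthest tumors narrows the range, and 4 tumors are too few to tell what the positive values rest on.

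**Figure D4:**
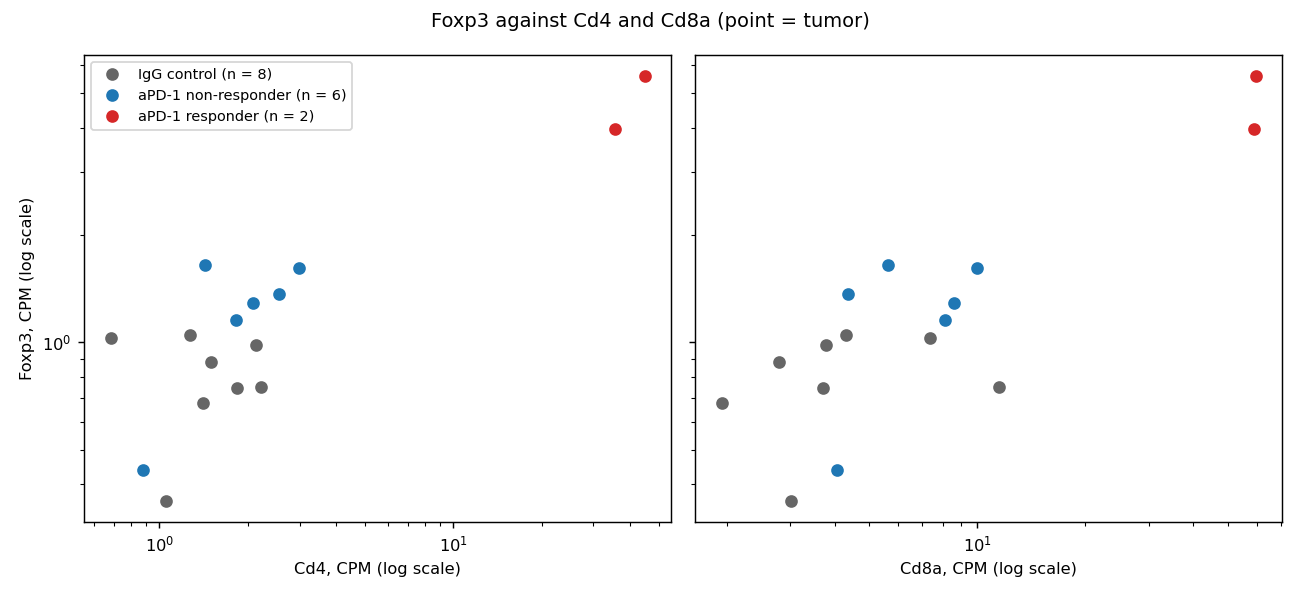
Foxp3 against Cd4 (left) and Cd8a (right), both in CPM on log axes, with 1 point per tumor and colours for the 3 groups. The responders lie apart at 35.4 and 44.8 CPM of Cd4, and among the other 14 tumors Cd4 stays between 0.684 and 3.0 CPM and Foxp3 between 0.360 and 1.65 CPM.

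The genes around the 8 members were taken from 5 lists with 46 genes in all, of which 45 passed the filter. The gene that did not pass was Il2, the cytokine itself, with 0 to 3 counts in IgG control tumors, 0 to 2 in non-responders, and 1 and 5 in responders. Between responders and non-responders 21 of the 45 were called higher, where 12.5% of all genes were, and the other 24 were not called. The median of the 45 was 0.90, against 0.02 for all genes. Without responder replicate 15, 13 were called, where 4.67% of all genes were.

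Of the IL-2 receptor partners, 2 of the 6 tested genes were called higher, the receptor chains that join Il2ra. The 4 not called also had positive log2 fold changes, all below 1. Il2rb had 4.06 to 14.8 CPM in non-responders and 26.9 and 38.5 CPM in responders, a log2 fold change of 1.85 ± 0.42 (adjusted p = 0.00437). Il2rg, the common gamma chain, rose by 1.17 ± 0.25 (adjusted p = 0.00293). Of the ligands and partners of the member receptors, 1 of 8 was called higher, which is at the 12.5% of all genes and is no result about this list. It was Ccl8, a chemokine that binds Ccr8, at 7.08 to 67.0 CPM in non-responders and 166 and 134 CPM in responders (2.43 ± 0.71, adjusted p = 0.0237).

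Of the suppressive effectors, 4 of 8 were called higher. Il12a, a chain of the cytokines IL-12 and IL-35, had 0 to 3 counts in non-responders and 81 and 31 counts in responders, a fitted log2 fold change of 5.68 ± 0.82 (adjusted p = 9.2e-05) that depends on the prior count at such low levels. Tigit, an inhibitory receptor, rose by 1.86 ± 0.55 (adjusted p = 0.0244). Of the other surface genes, 5 of 10 were called higher, led by Gpr83, a G protein-coupled receptor. It had 0 or 1 count in non-responders and 71 and 39 in responders (fitted 6.47 ± 0.85, adjusted p = 3.6e-05). Ccr4, a chemokine receptor, had 1 to 5 counts in non-responders and 70 in each responder (4.49 ± 0.63, adjusted p = 7.08e-05). The filter for low counts can be passed through the responders alone. Il12a, Gpr83 and Ccr4, with so few counts in non-responders, may have been tested only because they were high in responders. Their calls and their places in these lists are then partly set by the filter.

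The transcription factors that act with Foxp3 had the largest share, with 9 of 13 called. Ikzf3 (Aiolos), a relative of Ikzf2 and Ikzf4 that B cells also use, had 1.31 to 1.95 CPM in non-responders and 82.9 and 32.1 CPM in responders, a log2 fold change of 5.18 ± 0.33 (adjusted p = 1.83e-08). Irf4, a factor of activated T and B cells, had 0.406 to 2.47 CPM and then 42.3 and 28.7 CPM (4.47 ± 0.54, adjusted p = 1.5e-05). Both exceed the log2 fold change of every one of the 8 members.

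**Figure D5:**
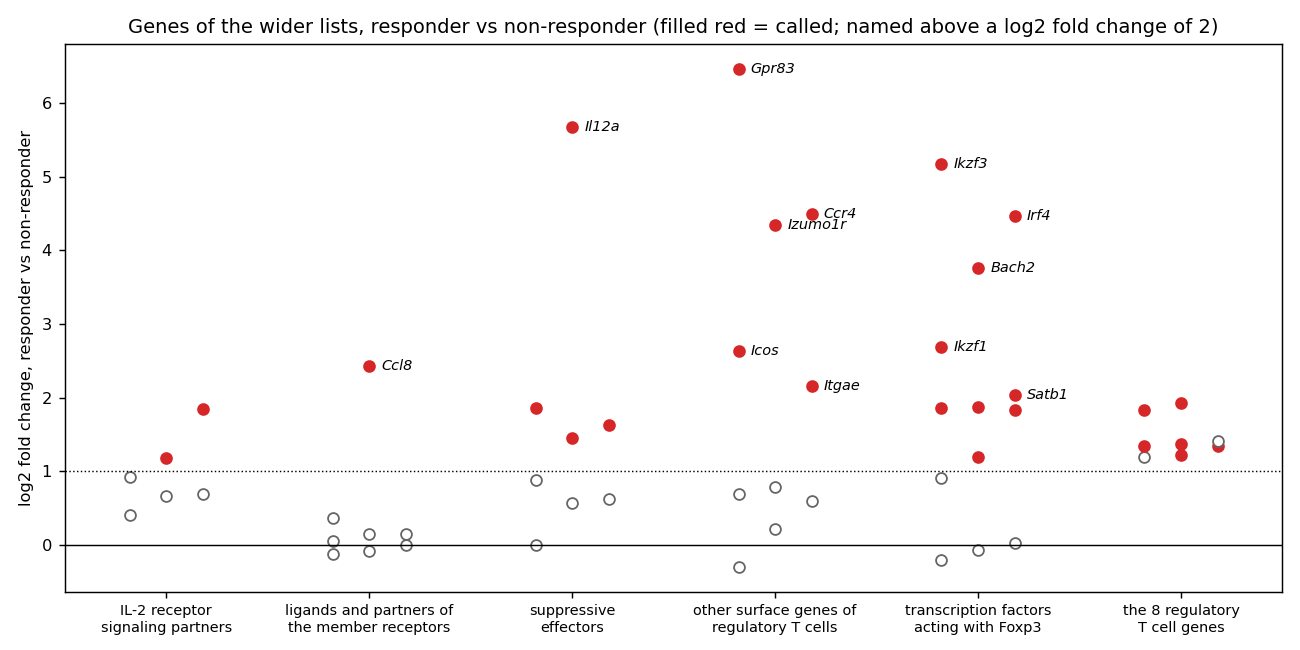
Log2 fold changes (edgeR) of responders over non-responders for the 45 tested genes of the 5 wider lists and for the 8 regulatory T cell genes, with 1 point per gene, filled red where called, and a dotted line at 1. The members lie between 1.19 and 1.93, while single genes of the wider lists reach 6.47 (Gpr83). Gpr83 had few counts in non-responders and may have passed the filter through the responders alone.

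Against IgG control tumors 21 of the 45 were called higher as well, where 14.3% of all genes were, and the responders were the same. Il12a led the suppressive effectors (fitted 6.46 ± 0.79, adjusted p = 1.19e-05), followed by the inhibitory receptor Ctla4 (2.26 ± 0.26, adjusted p = 7.39e-06). The surface genes were led by Gpr83 (fitted 5.75 ± 0.73, adjusted p = 1.82e-05) and Izumo1r, the folate receptor 4 gene (5.14 ± 0.66, adjusted p = 2.07e-05). For Il12a and Gpr83 the limit set by the filter holds here too. Ikzf3 (5.96 ± 0.30, adjusted p = 1.51e-09) and Irf4 (5.06 ± 0.50, adjusted p = 1.01e-06) led the transcription factors. Il2rb (2.25 ± 0.39, adjusted p = 3.7e-04), Il2rg (1.42 ± 0.24, adjusted p = 2.62e-04) and Ccl8 (3.30 ± 0.66, adjusted p = 0.0014) rose in the remaining lists.

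Between non-responders and IgG control tumors, edgeR and DESeq2 each called 0 of the 45, where of all genes edgeR called 0 and DESeq2 called 4. At an unadjusted p below 0.05 each marked 5 of the 45, where edgeR marked 3.8% and DESeq2 4.32% of all genes. By edgeR these were Ctla4, Icos, Ikzf3 and Tnfrsf9, higher in non-responders, and Nrp1, lower at -0.47. The smallest p was that of Ctla4, with 1.25, 2.0 and 2.87 CPM in controls and 2.03, 3.78 and 4.55 CPM in non-responders. The highest control was exceeded by 5 of the 6 non-responders (two-sided exact permutation p = 0.00599). The log2 fold change was 0.81 ± 0.20 (edgeR, adjusted p = 0.763). Ikzf3 (0.78 ± 0.25, edgeR adjusted p = 0.987) and Icos, a costimulatory receptor (0.75 ± 0.25, edgeR adjusted p = 0.987), had the smallest p of their lists, as did Ccl8 (0.87 ± 0.52) and Il2rg (0.25 ± 0.18) of theirs.

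Markers of several other cell types moved with the members in the responders, and their counts stand against the 12.5% of all genes called higher. All 7 pan T cell markers were called higher against non-responders, with a summed level of 8.30 to 23.2 CPM in non-responders, 5.22 to 17.8 CPM in controls, and 158 to 174 CPM in responders. All 7 B cell markers were called, at, in the same order of groups, 2.58 to 6.84, 1.63 to 7.55, and 314 to 1155 CPM. Lymph node stroma and high endothelial venule markers had 6 of 6 called, at 0.259 to 4.53, 0.191 to 2.85, and 146 to 538 CPM, led by Ccl21a. Endothelial cells and platelets use Lrrc32. Endothelial markers had 3 of 7 called, at 51.2 to 178, 73.5 to 188, and 209 to 392 CPM. Platelet markers had 1 of 3 tested called, at 15.9 to 23.7, 8.57 to 22.8, and 25.6 to 26.5 CPM, and NK cell markers 3 of 4, at 4.44 to 7.95, 3.68 to 7.64, and 11.6 to 18.7 CPM. Dendritic cell markers had 4 of 5 called, epithelial markers 4 of 5 tested, and mast cell markers 1 of 5. Macrophage and monocyte markers, with 1 of 8, were at the share of all genes, and fibroblast markers, with 0 of 5 by edgeR, were below it. The part of these cells in the levels of the 8 genes was not tested.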

How the data were processed

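Bulk RNA-seq of 16 MC38 tumors was analysed (8 after IgG, 8 after aPD-1 of which 6 were non-responders and 2 responders, each from another mouse). Per the methods and the submitters' processing notes, paired reads of 150 bases were aligned to GRCm38 with STAR 2.6 and quantified with RSEM 1.3.0 on Ensembl release 91 genes. The authors deposited expected counts per gene, without normalization, in 1 table; 7.83% of values were not whole, and all were rounded. The 92 spike-in entries (at most 0.000549% of counts) were left out. Symbols and positions came from GENCODE release 21 and matched 53274 of 53465 identifiers. Over 120 pairs of tumors, chi-square divided by its degrees of freedom was at least 16.5, so no library was counted as a copy. Spatial data and staining were not analysed here.

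All 16 tumors were fitted together with edgeR 4.0.16 in R 4.3.3 (filterByExpr, TMM, robust quasi-likelihood test), with the thresholds of adjusted p 0.05 and log2 fold change 1. DESeq2 1.42.0, the tool of the study, was run as an alternative. Levels relative to Cd4 and Cd8a were log2 CPM (prior count 2) minus that of the denominator gene, tested with limma 3.58.1 (trend, robust) on all genes. Exact permutation tests were two-sided; correlations used all orders under 10 tumors and 100000 permutations otherwise (scipy 1.17.1). On simulated counts of 18251 genes with known changes, edgeR recovered 43% of 2-fold and 79% of 4-fold changes between responders and non-responders. Recovery was counted at an adjusted p under 0.05 without the fold threshold, and 5.38% of the genes passing were false. Changes were placed only in genes above a minimum mean level, which Ccr8 (0.455 CPM over all tumors) did not reach.

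The 8 members and all gene lists were chosen with earlier results of these data known. Beyond the members, Cd4, Cd8a and Cd3e, the genes named were, per list and comparison, the 2 called genes of largest change, or otherwise the gene of smallest p, and the 5 genes most like Foxp3. Il2, Nrp1, Tnfrsf9, the overlapping genes, the CD3 genes of a denominator and further genes labelled in a plot fall outside this rule and were named after their values were seen. The same holds for Krt8, Krt18, Krt19, Epcam and ENSMUSG00000106106. Alternatives were DESeq2, other size factors, other filters, only the groups compared, no fold threshold, other ratio settings and leaving out each tumor. Leaving out the 3 tumors of highest mitochondrial share was added after the data were seen.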

Additional observations from a re-analysis of the deposited data

Results flagged for a closer look

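Single tumors that stood apart from the rest of their group were searched for in the 8 genes, in CPM and relative to Cd4 and Cd8a, by the gap of the highest or lowest tumor to its nearest neighbour over the range of the group (Dixon's 95% critical value, groups of 8 and 6 tumors). Of 48 groups examined, 8 held such a tumor. The 1 in 20 of the critical value assumes normal and independent values. The genes share their tumors and, in ratios, 1 denominator, so the number found cannot be set against it. IgG control replicate 1, with 18 Cd4 counts, was the highest control by far in 4 ratios to Cd4. It had 150.0 Foxp3 counts per 100 Cd4 counts (next highest 82.4), 117 for Ikzf4 (next 45.7), 361 for Tnfrsf4 (next 132) and 1206 for Lrrc32 (next 403). Non-responder replicate 14, with 26 Cd4 counts, was highest for Ikzf2, at 12.4 CPM (next 8.35) and 1412 counts per 100 Cd4 counts (next 560). Non-responder replicate 9 had 115 Foxp3 counts per 100 Cd4 counts (next 63.4). Non-responder replicate 10 had 94.4 Tnfrsf18 counts per 100 Cd8a counts (next 67.1). Replicates 1, 9 and 14 are the 3 tumors with the highest mitochondrial share. The part of read quality in these values was not tested.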

How the results depend on the processing

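No paired analysis was possible because the groups share no replicate numbers. The counts of called genes kept within 1.5 times of their value under each alternative fixed at the start (DESeq2, median-of-ratios size factors, both other filters, only the 2 groups compared, no fold threshold, prior count 0.5, the offset fit, exact permutation and the CD3 denominator), and under leaving out the 3 tumors of highest mitochondrial share, except when single tumors were left out. Between responders and non-responders, leaving out 1 tumor gave 2 to 7 called members, 13 to 21 called genes of the wider lists, and 2 to 7 members lower relative to Cd8a. The lowest values came without responder replicate 15 for the first 2 counts (2 and 13) and without replicate 16 for the third (2). With 1 responder left, that tumor is taken to vary like tumors of the other 2 groups. Against IgG control tumors these ranges were 5 to 7, 17 to 23 and 6 to 8. All 8 members stayed lower relative to Cd4 in both comparisons under all alternatives run.

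The correlation of Foxp3 with Cd4 over 14 tumors ranged from 0.42 to 0.69 when 1 tumor was left out, and passed an unadjusted p of 0.05 without IgG control replicate 1, IgG control replicate 8 or non-responder replicate 9. That with Cd8a ranged from 0.42 to 0.64 and passed without IgG control replicate 8. Within IgG control tumors, Foxp3 with Cd4 ran from -0.45 to 0.52, with a negative value without replicate 2 or 4. Leaving out 1 non-responder leaves under 6 tumors and was not run. Between non-responders and controls, values near 0 changed sign when 1 tumor was left out, with ranges of -0.13 to 0.30 for Ccr8, -0.17 to 0.041 for Ikzf2, and -0.29 to 0.050 for Foxp3 relative to Cd8a. Foxp3 relative to the CD3 genes was -0.12, against 0.21 relative to Cd4. The cause of these changes was not tested. With 2 responders, members that were not called, such as Ccr8, may differ by an amount these tumors do not resolve. The recovery of 2-fold changes in simulated data used no fold threshold and covered no changed gene as low as Ccr8, so it does not measure this.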

Other observations

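Genes whose pattern is most like that of Foxp3 were ranked by Pearson r of log2 CPM among the 13942 genes whose mean over all 16 tumors reached 1 CPM, as a description that pools tumors of different groups, depth and T cell content. Over the 14 tumors other than responders, the 5 highest were Ltbp2 (r = 0.84, rho = 0.75), Tmem252 (r = 0.84, rho = 0.66), Zap70 (r = 0.80, rho = 0.85), Cers4 (r = 0.79, rho = 0.68) and Col23a1 (r = 0.79, rho = 0.71). Since the minimum counts the responders, a gene can enter this ranking through its level in them, as Col23a1 did, with a mean of 0.755 CPM over the 14 tumors. Zap70 encodes a kinase of T cell receptor signaling, and Ltbp2 a protein of the extracellular matrix. Among the 8 genes themselves, Tnfrsf4 ranked at 25, Lrrc32 at 81, Tnfrsf18 at 127, Il2ra at 2274 and Ikzf2 at 13479, near the opposite end. Cd4 ranked at 400 and Cd8a at 484. Ikzf4 and Ccr8 were below the minimum level and have no rank. Pearson r with Foxp3 over the 14 tumors was -0.46 for Ikzf2, 0.06 for Ccr8 and 0.25 for Il2ra. It was 0.62 for Ikzf4, 0.64 for Tnfrsf18, 0.67 for Lrrc32 and 0.74 for Tnfrsf4, so not all of the members followed Foxp3. Over all 16 tumors, where the responders set the order, the 5 highest were Zap70, Cers4, Slc4a8, Ripk3 and Lsp1. Zap70 and Cers4 were among the 5 in both sets.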
